A study of Mus musculus with 5 samples.

Results

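The 10 genes described here encode the CD28 family and the inhibitory and paired receptors that adjust T cell activation: Ctla4, Cd28, Icos, Pdcd1, Btla, Tigit, Lag3, Havcr2, Cd96 and Cd226. They were chosen by name, and each name matched 1 of 57186 annotated gene IDs. All 10 passed the filter on low values. RNA was measured in follicular regulatory T (Tfr) cells, which were sorted from mouse spleen as live CD4+ cells positive for Foxp3, CXCR5, PD-1 and ICOS, 21 days after imiquimod, which activates the RNA sensor TLR7. The WT group had 3 libraries, from mice with a Foxp3-GFP reporter and intact Cebpa. The Cebpa_KO group had 2 libraries, from mice in which Foxp3-Cre acts on Cebpa-flox/flox alleles, so that the gene of C/EBP alpha is deleted in cells that express Foxp3. Each library pooled cells of several mice, and p-values therefore reflect variation among pools, not among mice. ICOS and PD-1 were part of the sort, so Icos and Pdcd1 were compared between cells already chosen for those proteins.

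A T cell responds to antigen only when its receptor signal is joined by a costimulatory signal, and CD28 is the main receptor that gives one. CD28 and CTLA-4 share the ligands CD80 and CD86, for which CTLA-4 has the higher affinity, and regulatory T cells use CTLA-4 to strip these ligands from antigen-presenting cells. ICOS costimulates follicular T cells, PD-1 and BTLA recruit phosphatases that dampen receptor signals, and TIGIT, CD96 and CD226 form a second ligand-sharing group around the poliovirus receptor.

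Values are scaled TPM, the deposited TPM of a gene, a level per transcript length and library size, after each library was divided by a median-ratio factor of 0.984 to 1.04. Depth was 6.77 to 7.08 gigabases aligned per library, and 15250 to 15691 genes had a TPM of at least 1. Cebpa, the targeted gene, was at 12.9, 17.7 and 12.8 (WT) against 0.317 and 0.550 (Cebpa_KO) (log2 difference -3.42, SE 0.20, limma adjusted p = 0.00371). Without Cebpa_KO replicate 2 its adjusted p was 0.0512. Foxp3 RNA, which the sort should favour, was at 83.0, 107.3 and 104.8 in WT but only 6.74 and 5.58 in Cebpa_KO. Both groups are nonetheless labelled as sorted Foxp3+ cells, and why this RNA was low in Cebpa_KO was not tested. The groups also differed in their Foxp3 allele and in the sex of the mice: Xist was at 0.0220 or less in every WT library and at 11.4 and 10.7 in the Cebpa_KO libraries, and the Y gene Ddx3y was at 42.0 or more in WT and listed at 0 in Cebpa_KO. The effects of genotype, allele and sex cannot be told apart in this design. WT replicate 3 stood apart from the other WT libraries: the heat shock gene Hspa1a stood at 0.911 in WT replicate 1 and 0.684 in WT replicate 2, but at 690.3 in WT replicate 3, nearer to the 1147 and 1238 of the Cebpa_KO libraries. Results that rest on it are given with and without it.

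C/EBP alpha binds DNA, so the 250 bases upstream of the annotated start are shown for 3 of the receptor genes, Ctla4 and Cd96, which fell in Cebpa_KO, and Tigit, which did not pass the test. The sequences are RefSeq's on build GRCm38.p6, a different build from the mm39 coordinates of the expression tables, and 6 of the 10 genes had an entry. Capitals mark matches on either strand to a C/EBP half-site pair (TTNNGNAA), a forkhead site (GTAAACA) or the core of an NFAT site (GGAAAA). No marked matches overlapped in these windows.
Ctla4, chr1:60908775-60909024, plus strand: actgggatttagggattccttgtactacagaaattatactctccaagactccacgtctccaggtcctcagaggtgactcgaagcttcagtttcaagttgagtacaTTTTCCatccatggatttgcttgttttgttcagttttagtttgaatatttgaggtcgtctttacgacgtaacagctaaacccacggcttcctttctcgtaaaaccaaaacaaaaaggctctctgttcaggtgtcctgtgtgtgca
Cd96, chr16:46120249-46120498, minus strand: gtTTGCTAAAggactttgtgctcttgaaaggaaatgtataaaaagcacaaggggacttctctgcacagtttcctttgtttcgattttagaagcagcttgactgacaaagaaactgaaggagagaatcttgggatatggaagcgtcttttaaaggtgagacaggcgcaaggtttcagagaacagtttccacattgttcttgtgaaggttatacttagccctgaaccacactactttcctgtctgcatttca
Tigit, chr16:43664185-43664434, minus strand: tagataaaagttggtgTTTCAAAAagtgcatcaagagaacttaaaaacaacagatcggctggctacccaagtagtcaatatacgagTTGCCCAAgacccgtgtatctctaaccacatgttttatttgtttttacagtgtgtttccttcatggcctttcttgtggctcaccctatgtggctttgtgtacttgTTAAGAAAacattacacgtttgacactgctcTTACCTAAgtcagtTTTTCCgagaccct
The Ctla4 window held 1 NFAT match, 145 to 140 bases before the start. The Cd96 window held 1 C/EBP match, 248 to 241 bases before the start. The Tigit window held 4 C/EBP matches and 1 NFAT match. The windows of Btla, Pdcd1 and Havcr2 held none of the 3 motifs. Of 32851 promoter windows of the same length, 36.8% held the C/EBP letters, 20.4% the NFAT letters and 3.17% the forkhead letters, and a match is a description of the letters, not of binding.

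Of the 10 receptor genes, 5 were lower in Cebpa_KO and none was higher: Ctla4, Cd28, Icos, Btla and Cd96 fell. The call was an adjusted p under 0.05, by limma on log2(scaled TPM + 1) with Benjamini-Hochberg adjustment over 16254 genes. Over all genes tested, 9.82% were called lower and 9.93% higher, 19.7% in either direction. The median log2 difference was -0.28 over the 10 receptors and 0.01 over all genes. The WT and Cebpa_KO libraries did not overlap in 7 of the 10, against 56.7% of all genes. These calls needed both Cebpa_KO libraries. Without Cebpa_KO replicate 1, 34 genes were called in all (0.215%), and without Cebpa_KO replicate 2, 23 genes (0.145%), none of them a receptor of this group. Without WT replicate 1, Ctla4 and Cd96 were called, where 12.4% of all genes were, and without WT replicate 2, only Cd96, where 5.18% were. Without WT replicate 3, Ctla4, Cd28, Icos and Cd96 were called lower and Havcr2 higher, where 25.1% of all genes were called. In bulk RNA, fewer cells expressing a receptor and less of its RNA per cell cannot be told apart.

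**Figure D1:**
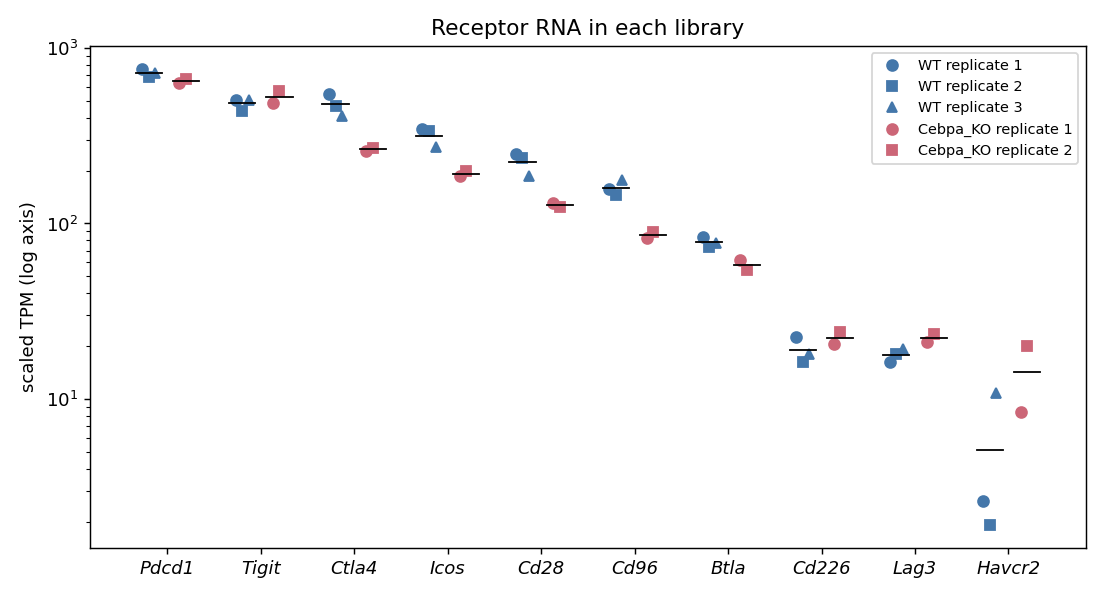
Scaled TPM (log axis) of the 10 receptor genes in the 3 WT libraries (blue) and the 2 Cebpa_KO libraries (red), with the shape giving the replicate and the line the group mean. Ctla4, Icos, Cd28, Cd96 and Btla sit lower in both Cebpa_KO libraries than in any WT library, whereas the groups overlap in Tigit, Cd226 and Havcr2.

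Ctla4, Cd28 and Icos lie side by side on mm39 chromosome 1 within 283521 bases, and all 3 fell. Ctla4 (ENSMUSG00000026011, chr1:60926159-60954991, plus strand), the high-affinity competitor for CD80 and CD86, was at 548.2, 468.9 and 412.0 (WT) against 258.6 and 270.0 (Cebpa_KO). Both Cebpa_KO libraries were below all 3 WT libraries, among which replicate 3 was the lowest. The mean was 476.4 ± 68.4 (SD, n = 3) in WT and 264.3 ± 8.03 (SD, n = 2) in Cebpa_KO, 44.5% lower (log2 difference -0.84, 95% interval -1.17 to -0.50, limma adjusted p = 0.0169).

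Cd28 (ENSMUSG00000026012, chr1:60755959-60812518, plus strand), the primary costimulatory receptor, was at 249.7, 237.4 and 186.5 (WT) against 130.7 and 124.9 (Cebpa_KO). The groups did not overlap, and WT replicate 3 again lay between the other WT libraries and Cebpa_KO. The mean went from 224.5 ± 33.5 to 127.8 ± 4.08, 43.1% lower (log2 difference -0.80, 95% interval -1.15 to -0.44, limma adjusted p = 0.0212). Icos (ENSMUSG00000026009, chr1:61017086-61039479, plus strand), which costimulates follicular T cells through ICOS ligand, was at 343.5, 334.9 and 271.3 (WT) against 185.2 and 198.0 (Cebpa_KO). The groups did not overlap here either, although all cells had been sorted as ICOS+. Its mean went from 316.6 ± 39.4 to 191.6 ± 9.01, 39.5% lower (log2 difference -0.71, 95% interval -1.03 to -0.40, limma adjusted p = 0.0207).

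WT replicate 3 was lower than the mean of WT replicates 1 and 2 by 0.30 for Ctla4, 0.38 for Cd28 and 0.32 for Icos on the log2 scale. Without it, the differences were -0.94 for Ctla4, -0.93 for Cd28 and -0.83 for Icos, with limma adjusted p of 0.00885, 0.00594 and 0.00691. Against WT replicate 3 alone, they were -0.65, -0.55 and -0.51, and Icos no longer passed (limma adjusted p = 0.0536), in a fit that called 10.7% of all genes and assumes that the lone WT library varies like the Cebpa_KO libraries. With another library left out, Ctla4 did not pass without WT replicate 2, Cebpa_KO replicate 1 or Cebpa_KO replicate 2 (limma adjusted p = 0.0620, 0.120 and 0.108). Among the fits with 1 library left out, Cd28 and Icos passed only without WT replicate 3. Their other limma adjusted p in those fits lay between 0.0535 and 0.140.

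The genes around this cluster did not share 1 direction. Rpl18-ps1, a ribosomal protein pseudogene inside the Ctla4 span, was at 61.7, 55.3 and 60.3 (WT) against 63.4 and 55.9 (Cebpa_KO) (log2 difference 0.01, limma adjusted p = 0.941). Its direction turned in 4 alternatives, which put it between -0.072 and -0.015. Gm38137, the nearest tested gene model left of Ctla4, was at 1.59, 1.34 and 1.26 (WT) against 0.316 and 0.157 (Cebpa_KO) and fell by 0.96 (limma adjusted p = 0.0188), a call lost without WT replicate 2 or either Cebpa_KO library. Gm57147, left of Cd28, rose by 0.34 (limma adjusted p = 0.0485), and Gm11579, right of Cd28, fell by 1.48 (limma adjusted p = 0.0428); neither passed without WT replicate 1, WT replicate 2 or either Cebpa_KO library, nor did Gm57147 without WT replicate 3. Over all 10 receptors, the nearest tested genes on either side were 19 distinct genes, of which 2 were higher and 2 lower, beside 19.7% of all genes called. The other called neighbour, Gm49734 to the right of Tigit, had a log2 difference of 1.12 (limma adjusted p = 0.0331), which did not pass without WT replicate 1 or WT replicate 2. Cd4, the coreceptor gene beside Lag3 on chromosome 6, had a log2 difference of -0.26 (limma adjusted p = 0.0638).

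Pdcd1 (ENSMUSG00000026285, chr1:93966027-93980278, minus strand) encodes PD-1 and had the highest RNA level of the group. It was at 761.6, 682.4 and 720.1 (WT) against 632.6 and 663.5 (Cebpa_KO). Both Cebpa_KO libraries were below every WT library, but by little, and the log2 difference of -0.15 did not pass (95% interval -0.37 to 0.06, limma adjusted p = 0.250). Btla (ENSMUSG00000052013, chr16:45044678-45078033, plus strand), an inhibitory receptor that binds the TNF receptor family member HVEM, was at 83.2, 73.9 and 77.2 (WT) against 62.2 and 54.4 (Cebpa_KO). The groups did not overlap, and the mean went from 78.1 ± 4.73 to 58.3 ± 5.53, 25.3% lower (log2 difference -0.42, 95% interval -0.67 to -0.17, limma adjusted p = 0.0429). Btla was the least firm of the 5 calls: it was lost with any 1 library left out, with limma adjusted p from 0.0502 without WT replicate 3 to 0.235 without Cebpa_KO replicate 2, and it passed in 7 of 18 alternatives.

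Of the receptors for the poliovirus receptor (CD155), Cd96 fell, and Tigit and Cd226 did not pass. Cd96 (ENSMUSG00000022657, chr16:45856020-45940614, minus strand), named TACTILE in other sources, was at 157.7, 144.5 and 176.4 (WT) against 82.9 and 89.8 (Cebpa_KO). The groups did not overlap, and unlike for Ctla4, Cd28 and Icos, WT replicate 3 was the highest WT library. The mean went from 159.5 ± 16.0 to 86.3 ± 4.89, 45.9% lower (log2 difference -0.87, 95% interval -1.15 to -0.60, limma adjusted p = 0.0104). This was the difference called in most alternatives, 16 of 18, and it was lost without Cebpa_KO replicate 1 (limma adjusted p = 0.0950) or Cebpa_KO replicate 2 (limma adjusted p = 0.0848).

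CD96 is also carried by NK cells, so their RNA is given beside it. Of the 9 NK and CD8 T cell genes listed, 7 were tested and 1 fell, a share of 14.3% beside 9.82% of all genes called lower. Klrb1c, which encodes NK1.1, was at 39.1, 35.6 and 30.4 (WT) against 10.7 and 10.1 (Cebpa_KO) (log2 difference -1.66, limma adjusted p = 0.00550). The summed level of the list was 82.3, 78.2 and 106.5 (WT) against 46.0 and 42.2 (Cebpa_KO). Ncr1, the defining receptor of NK cells, was at 0.773 to 1.92 in WT and 0.180 and 0.264 in Cebpa_KO. It did not pass (limma adjusted p = 0.0573). Klra8 was too low to test and was listed at 0 in Cebpa_KO replicate 2. The groups overlapped in Klrk1, Eomes, Gzma and Prf1. Their log2 differences were -0.64, -1.01, 0.12 and -0.20, and none passed. Cd8a was at 0.200 or less in every library. The gene of the other CD8 chain, Cd8b1, was at 21.6, 23.5 and 17.3 (WT) against 16.1 and 14.7 (Cebpa_KO). Its log2 difference of -0.40 did not pass (limma adjusted p = 0.126). The part of such cells in the Cd96 difference was not tested.

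Tigit (ENSMUSG00000071552, chr16:43469230-43484509, minus strand), an inhibitory receptor of regulatory T cells, was at 507.7, 437.0 and 506.1 (WT) against 487.0 and 567.5 (Cebpa_KO). The groups overlapped, and the log2 difference was 0.12 (95% interval -0.16 to 0.41, limma adjusted p = 0.472). Cd226, the activating partner that binds the same ligand, was at 22.6, 16.3 and 18.0 (WT) against 20.6 and 24.1 (Cebpa_KO) (ENSMUSG00000034028, chr18:89195091-89290353, plus strand). Its groups overlapped as well, with a log2 difference of 0.23 (95% interval -0.19 to 0.65, limma adjusted p = 0.357).

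Lag3 and Havcr2 had the lowest mean TPM of the group, although the libraries of Lag3 and Cd226 overlapped in range. Lag3 (ENSMUSG00000030124, chr6:124881324-124888668, minus strand), which binds MHC class II, was at 16.3, 18.0 and 19.4 (WT) against 21.1 and 23.5 (Cebpa_KO). Both Cebpa_KO libraries were above every WT library, but the log2 difference of 0.31 did not pass (95% interval 0.01 to 0.60, limma adjusted p = 0.127).

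Havcr2 (ENSMUSG00000020399, chr11:46345762-46372082, plus strand) encodes TIM-3, which marks terminally activated T cells and is also found on myeloid cells. It was at 2.61, 1.92 and 10.9 (WT) against 8.41 and 20.1 (Cebpa_KO). WT replicate 3 lay between the Cebpa_KO libraries, so the groups overlapped, and the log2 difference of 1.49 did not pass (95% interval -0.25 to 3.24, limma adjusted p = 0.182). Without WT replicate 3 it was 2.12 and passed (95% interval 1.02 to 3.21, limma adjusted p = 0.0278), whereas against WT replicate 3 alone it was 0.24 (limma adjusted p = 0.787). Of the 10 receptors, Havcr2 thus had the widest interval, and its call turned on that library. Of 10 myeloid genes listed, 6 were tested and none was called, and their summed level was 90.8, 63.6 and 116.4 (WT) against 135.4 and 52.6 (Cebpa_KO). The dendritic cell gene Clec9a was at 0.0572 or less in all 5 libraries. The stress gene list summed to 2228 in WT replicate 1, 2211 in WT replicate 2 and 7095 in WT replicate 3, beside 8245 and 8643 for Cebpa_KO. With all 5 libraries, none of 4 tested neutrophil, 5 erythroid and 6 plasma cell genes was called. Their summed levels were 9.06 to 64.6 (WT) against 57.3 and 276.5 (Cebpa_KO) for neutrophils, 34.1 to 381.6 against 127.8 and 1171 for red cells and 230.0 to 838.9 against 295.3 and 477.0 for plasma cells. Without WT replicate 3, 2 neutrophil genes were called higher, where 25.1% of all genes were called in either direction. No myeloid, erythroid or plasma cell gene was called in that fit. The median log2 difference of the neutrophil genes was 2.42 with all 5 libraries and 3.05 without WT replicate 3. The part of these lists in the Havcr2 values was not tested.

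**Figure D2:**
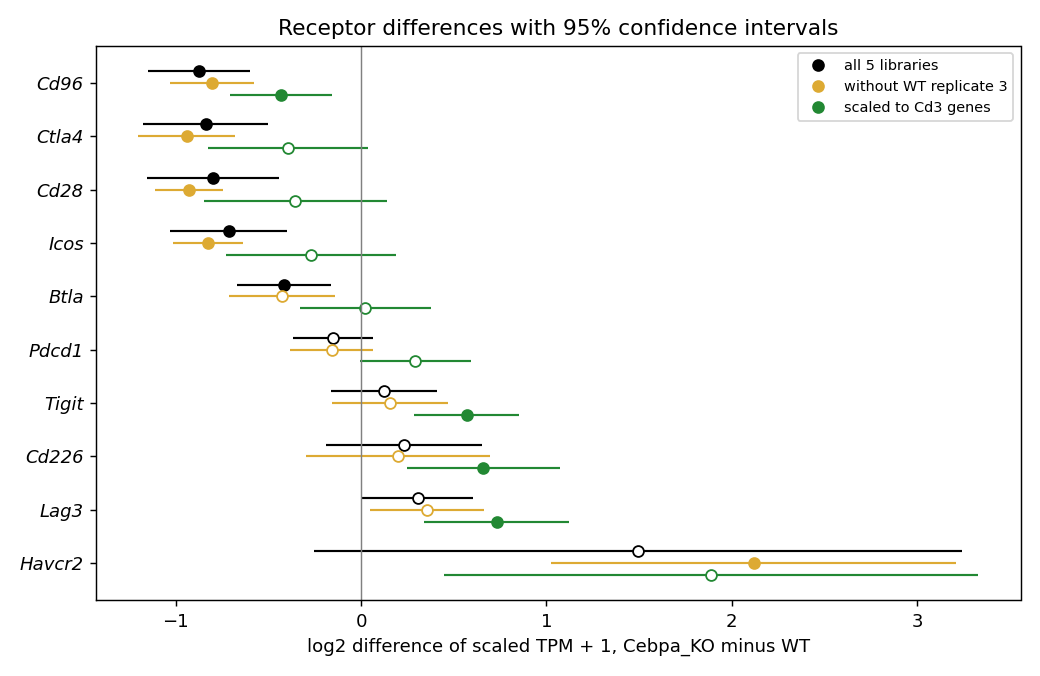
Log2 difference of scaled TPM + 1, Cebpa_KO minus WT, for the 10 receptor genes with 95% intervals, from all 5 libraries (black), without WT replicate 3 (yellow) and with libraries scaled to the Cd3 genes (green); filled circles passed an adjusted p of 0.05. Cd96 is filled in all 3 fits, and the Cd3 scaling moves the 10 genes to the right together.

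How far the receptors fell depended on what the libraries were scaled to, and some T cell identity genes were lower in Cebpa_KO too. Of 9 T cell identity genes, all tested, 4 fell and none rose, a share of 44.4% beside 9.82% of all genes called lower. Their median was -0.43. Thy1 fell by 0.95, Cd3d by 0.62, Trac, the T cell receptor alpha constant gene, by 0.48 and Cd3e by 0.43. When libraries were scaled to the 4 Cd3 genes instead, the median of all genes moved to 0.40, and 92.9% of calls were higher against 50.3% before. On that scale Cd96 was still lower (log2 difference -0.43, limma adjusted p = 0.0336), Ctla4, Cd28 and Icos had differences of -0.39, -0.35 and -0.27 that did not pass, and Btla and Pdcd1 turned to 0.023 and 0.29. Tigit, Lag3 and Cd226 were then called higher, by 0.57, 0.73 and 0.66, on a scale where 29.1% of all genes were called higher and 2.24% lower, and Havcr2 was at 1.89 (limma adjusted p = 0.0547). Relative to the median of all genes, on the Cd3 scale Ctla4 was at -0.79, Cd28 at -0.75, Icos at -0.67, Cd96 at -0.83, Btla at -0.38 and Pdcd1 at -0.11. Each library is divided by a factor common to all its genes, so these distances are nearly fixed by construction and are no separate support. The 4 Cd3 genes that set this scale are themselves 4 of the 9 identity genes, so the count of identity genes on it is largely fixed by construction. With libraries left out, the 4 calls became 0 without WT replicate 1 or either Cebpa_KO library, and 1 without WT replicate 2.

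Levels between the receptors spanned more than their differences between groups. In WT the order of the means was Pdcd1 (721.3 ± 39.6), Tigit (483.6 ± 40.3), Ctla4, Icos, Cd28, Cd96, Btla, Cd226 (19.0 ± 3.28), Lag3 (17.9 ± 1.54) and Havcr2 (5.13 ± 4.98), and it was the same in Cebpa_KO. Pdcd1 exceeded 99.0% of tested genes by its WT mean, Tigit 98.4%, Ctla4 98.3%, and Havcr2 31.6%. Tigit and Ctla4 did not differ beyond their spread in WT, at a ratio of 1.02, but stood apart in Cebpa_KO, at a ratio of 1.99. Cd226 and Lag3 did not differ beyond their spread in either group. The order depended on the measure of level, and why the measures differ was not tested. When levels were taken from the deposited coverage per base of the gene, the TPM of Cd28 was 5.02 times that level in WT, that of Ctla4 2.49 times and that of Cd226 2.17 times, against 0.995 to 1.11 times for the other genes. By coverage Icos therefore ranked above Ctla4, and Cd28 came after Cd96 and Btla rather than before them. Lag3, at a WT mean of 17.2, then ranked above Cd226, at 8.73. The calls between groups did not depend on the measure. By coverage, where 13.2% of all genes were called lower, the same 5 genes fell. Ctla4 fell by 0.81, Cd28 by 0.75, Icos by 0.68, Btla by 0.39 and Cd96 by 0.86.

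The make-up of the receptor RNA shifted accordingly. The 10 genes summed to 2693, 2415 and 2398 (WT) against 1889 and 2036 (Cebpa_KO). Ctla4 made up 20.4%, 19.4% and 17.2% of that sum in WT and 13.7% and 13.3% in Cebpa_KO. Tigit made up 18.9%, 18.1% and 21.1% in WT and 25.8% and 27.9% in Cebpa_KO. Pdcd1 took 28.3% to 30.0% in WT and 33.5% and 32.6% in Cebpa_KO. Each of these shares lay outside the range of the other group, whereas those of Btla and Havcr2 overlapped. By level, the groups did not overlap in 56.7% of all genes. Shares of a sum are tied to each other, so some must rise when others fall. The higher shares of Tigit and Pdcd1, which did not pass by level, are therefore no separate result.

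**Figure D3:**
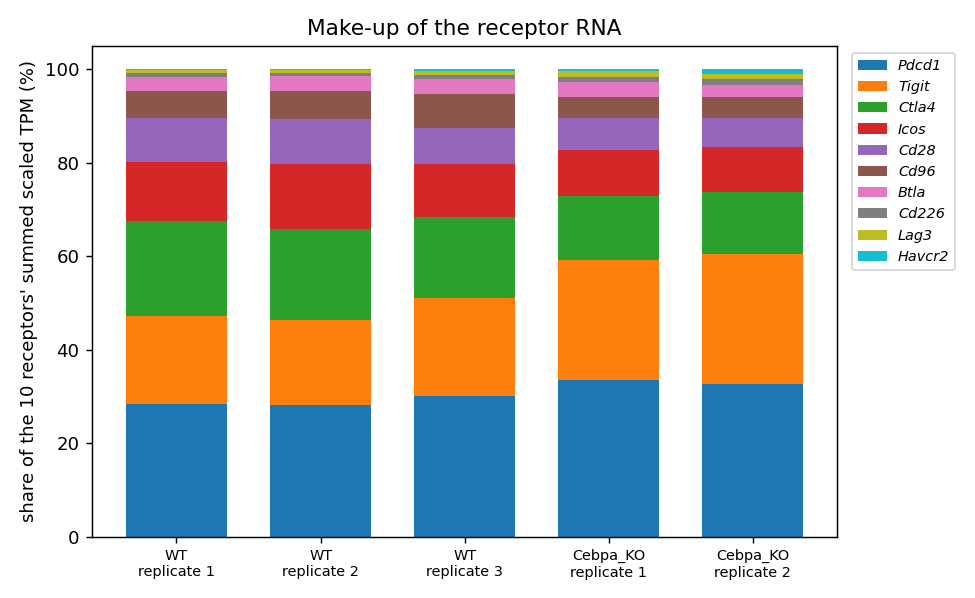
Share (percent) of each receptor gene in the summed scaled TPM of the 10 genes, 1 bar per library. Pdcd1, Tigit and Ctla4 make up most of every bar; Ctla4 takes 17.2% to 20.4% in WT and 13.3% to 13.7% in Cebpa_KO, and Tigit 18.1% to 21.1% and 25.8% to 27.9%.

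Ratios within a library do not depend on scaling, and 5 were compared by an exact two-sided permutation test over the 5 libraries, whose smallest p is 0.1. Ctla4 over Cd28, the competitor over the receptor it competes with, was 2.20, 1.98 and 2.21 (WT) against 1.98 and 2.16 (Cebpa_KO), so that the groups overlapped (exact p = 0.6, adjusted p = 0.6). Icos over Cd28 was 1.38, 1.41 and 1.45 (WT) against 1.42 and 1.58 (Cebpa_KO) (exact p = 0.4, adjusted p = 0.5). With 5 libraries, this test cannot show whether the 3 clustered genes moved by equal amounts. Cd96 over Cd226 was 6.96, 8.87 and 9.80 (WT) against 4.02 and 3.73 (Cebpa_KO), a log2 difference of -1.13. Pdcd1 over Icos was 2.22, 2.04 and 2.65 (WT) against 3.42 and 3.35 (Cebpa_KO), a log2 difference of 0.56. Neither of the last pair overlapped between groups, each at the smallest exact p of 0.1 (adjusted p = 0.25 over the 5 ratios). Tigit over Cd226, the inhibitory over the activating receptor, was 22.4, 26.8 and 28.1 in WT and 23.6 in both Cebpa_KO libraries (exact p = 0.4, adjusted p = 0.5).

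The ligands of these receptors showed 1 gene higher and 1 lower among 12 tested of 14, a share of 16.7% beside 19.7% of all genes called in either direction. Pdcd1lg2, which encodes the PD-1 ligand PD-L2, was at 11.7, 12.3 and 14.1 (WT) against 24.0 and 23.3 (Cebpa_KO). Both Cebpa_KO libraries were above every WT library, a rise of 0.86 on the log2 scale (limma adjusted p = 0.0128). Cd80, which CD28 and CTLA-4 share as a ligand, was at 7.319, 6.377 and 5.318 (WT) against 2.705 and 2.972 (Cebpa_KO) and fell by 0.93 (limma adjusted p = 0.0228). Cd86, the other shared ligand, was at 16.1, 13.6 and 17.0 (WT) against 14.1 and 12.6 (Cebpa_KO) and did not pass (log2 difference -0.20, limma adjusted p = 0.330). Cd274, which encodes PD-L1, had a log2 difference of 0.03, Icosl of 0.18, Pvr, which encodes CD155, of -0.32, and Tnfrsf14, which encodes HVEM, of -0.46, and none passed. Of the ligands assigned to LAG-3, TIM-3, TIGIT or CD226, Lgals9, Lgals3, Ceacam1, Nectin2 and Hmgb1 lay between -0.50 and 0.34 without passing, and Nectin3 and Fgl1 were too low to test. The ligand median was -0.16 and turned to 0.21 on the Cd3 scale. The 2 calls became 0 without WT replicate 2, Cebpa_KO replicate 1 or Cebpa_KO replicate 2 and 1 without WT replicate 1. B cells and antigen-presenting cells also make these ligands: of 10 B cell genes, 8 were tested and 1 was lower, Cd22, with a log2 difference of -2.54 (limma adjusted p = 0.0311), and the summed level was 137.3, 136.5 and 193.8 (WT) against 282.4 and 60.2 (Cebpa_KO), and its part in the ligand values was not tested.

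Downstream of the receptors, some genes dampen the T cell receptor signal and others carry it. Of 19 genes of inhibitory signalling, all tested, 8 fell and none rose, a share of 42.1% beside 9.82% of all genes called lower. Their median was -0.46, or -0.01 on the Cd3 scale, where 3 were called higher and 0 lower. Dok2, an adaptor that restrains Ras signalling, fell by 0.79, Itch, a ubiquitin ligase of T cell tolerance, by 0.63, Csk, the kinase that holds Lck inactive, by 0.49, and Cbl, another ubiquitin ligase, by 0.71. Of 17 genes of CD28 and T cell receptor signalling, 2 fell and none rose, a share of 11.8% beside 9.82% of all genes called lower, with a median of -0.20. Those called were Pik3r1, the regulatory subunit of PI3 kinase, which CD28 recruits, by 0.56 and Prkcq, protein kinase C theta, by 0.53. Lck, the kinase that starts receptor signalling, was at 2391, 2191 and 2344 (WT) against 1773 and 1850 (Cebpa_KO) and just missed the threshold (log2 difference -0.35, limma adjusted p = 0.0539). Without WT replicate 1, 4 inhibitory genes and 1 signalling gene were called, without WT replicate 2 or either Cebpa_KO library 0 and 0, and without WT replicate 3, 8 and 4.

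CTLA-4 is stored inside the cell and cycled to the surface. Of 11 tested genes of its trafficking, 3 fell and none rose, a share of 27.3% beside 9.82% of all genes called lower. On the Cd3 scale 2 were called higher and 1 lower. Trat1, which encodes TRIM, an adaptor that carries CTLA-4 to the surface, was at 25.91, 25.88 and 28.05 (WT) against 7.55 and 7.64 (Cebpa_KO), a fall of 1.68 on the log2 scale beside 0.84 for Ctla4 (limma adjusted p = 0.00427). Rab11a, a GTPase of recycling endosomes, fell by 0.42, or was at 0.026 on the Cd3 scale, and Prkch, a kinase that binds the CTLA-4 tail, fell by 0.48. Lrba, which protects CTLA-4 from lysosomes, was at 8.27, 8.26 and 10.3 (WT) against 8.58 and 7.62 (Cebpa_KO), and its log2 difference of -0.12 did not pass. The count was 2 without WT replicate 1 or WT replicate 3, 1 without WT replicate 2 and 0 without either Cebpa_KO library.

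Other inhibitory receptors were lower as well: 7 of 12 tested fell and none rose, a share of 58.3% beside 9.82% of all genes called lower. Their median was -0.65, which was -0.22 on the Cd3 scale. Vsir, which encodes VISTA, went from 186.4 ± 11.1 to 98.9 ± 8.10 (log2 difference -0.91, limma adjusted p = 0.00725). Lair1, a collagen receptor, fell by 1.64, Cd5, which tunes T cell receptor signals, by 0.60 and Cd101 by 0.70. Of 12 other costimulatory receptors, 3 fell and none rose, a share of 25% beside the same 9.82%. Their median of -0.26 turned to 0.18 on the Cd3 scale. Cd27 went from 918.7 ± 84.0 to 476.8 ± 13.1, Tnfrsf1b, the TNF receptor TNFR2 of regulatory T cells, fell by 1.16 and Slamf1 by 0.57. Both counts became 0 without either Cebpa_KO library, and without WT replicate 2 they were 2 and 1. Without WT replicate 1 the inhibitory count was 4.

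Among 22 transcription factors and RNA-binding proteins that regulate these receptor genes, 3 fell and 1 rose, a share of 18.2% beside 19.7% of all genes, with a median of -0.19 that turned to 0.25 on the Cd3 scale. Foxp3, which binds the Ctla4 gene in regulatory T cells, fell by 3.79 (limma adjusted p = 0.00115). The Foxp3 allele also differed between the groups, and its part in this value was not tested. Foxo1, which drives Ctla4 in regulatory T cells, was at 79.9, 78.8 and 81.2 (WT) against 43.0 and 39.1 (Cebpa_KO) and fell by 0.95 (limma adjusted p = 0.00623). Bcl6, the master regulator of follicular T cells, fell by 0.85 (limma adjusted p = 0.0311). Tbx21, which encodes T-bet, rose from 16.1 ± 2.64 to 45.0 ± 6.09 (log2 difference 1.43, limma adjusted p = 0.00923). Without either Cebpa_KO library the count was 1, Foxp3. Cxcr5, the remaining sort marker, fell by 0.78 (limma adjusted p = 0.0206).

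**Figure D4:**
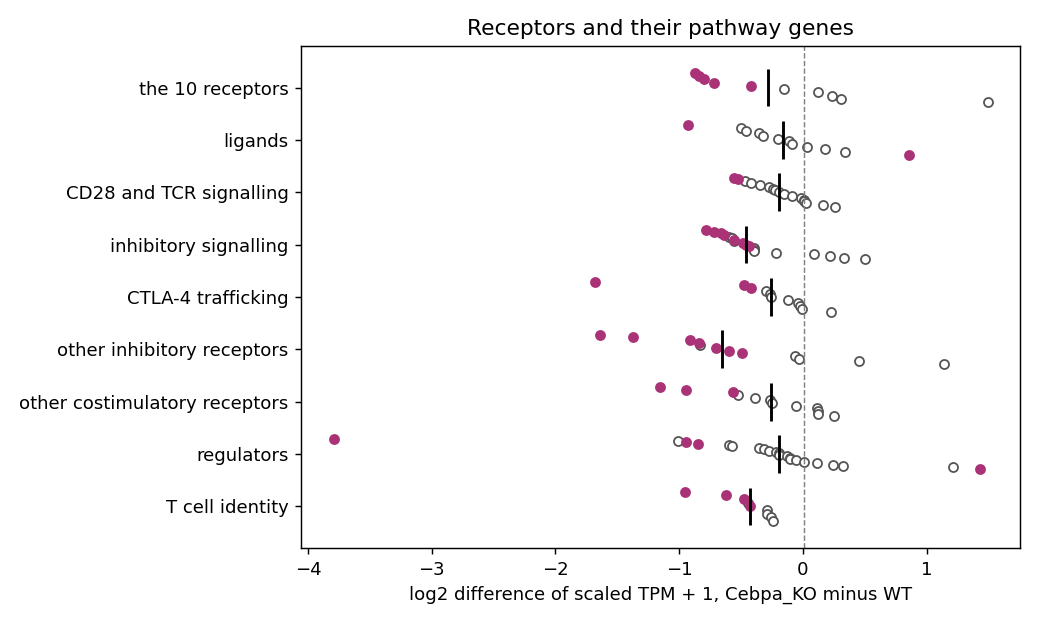
Log2 difference of scaled TPM + 1, Cebpa_KO minus WT, for each tested gene of the receptor group and of 8 related lists; filled circles passed an adjusted p of 0.05, and the black bar is the list's median. The medians of all 9 rows lie below 0, from -0.16 for the ligands to -0.65 for the other inhibitory receptors, on the scaling by all genes.

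For each receptor that fell, the genes whose values over the 5 libraries lay nearest to it, each centred on its own mean, were found among genes with a mean of at least 5. The measure was the root mean square difference of log2(scaled TPM + 1). Nearest to Ctla4 were Gm56993 at 0.06 and Slc37a3 at 0.06, and nearest to Cd28 were Emc9 at 0.02 and the T cell receptor segment Traj6 at 0.04. Nearest to Icos were N4bp2l1 and Ogt, both at 0.03, and nearest to Btla were Klf7 at 0.02 and Retreg2 at 0.03. Nearest to Cd96 were Vsir, described above, and the segment Traj27, both at 0.05.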

How the data were processed

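Reads were processed with STAR 2.7.11b and StringTie 2.1.3b on build mm39, per the submitters' processing notes; neither the annotation release nor the setting for strand is given in these sources. Libraries were made with SMART-Seq v4 and Nextera XT, per the labels' protocols. The gene tables give TPM, FPKM and coverage, per the file headers. The TPM column deposited by the authors is treated as a score, because assembled loci and annotated genes both fill it; the annotated rows were used. The deposited coverage (a signal, read depth per base) and the FPKM deposited by the authors gave aligned depth as their ratio, and coverage also served as an alternative measure. These tables hold no read counts, so count models and counting intervals were not used.

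Libraries were scaled by the median of their ratios to a geometric mean library, over genes that reached a TPM of 1 in all of them. Genes reaching that level in 2 or more of the 5 libraries were tested with limma 3.58.1 (R 4.3.3) using its intensity trend on log2(scaled TPM + 1), a scale that understates the change of low genes. P-values were Benjamini-Hochberg adjusted over 16254 genes, at a threshold of 0.05. The script was tested on simulated data. Alternatives were unscaled TPM, scaling to the 4 Cd3 genes, quantile normalization, no trend, array weights, pseudocounts of 0.1 and 5, a TPM filter of 5 or none, a replicate block and the removal of each library.

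The members and the lists were chosen with earlier results of these data known. The genes named were the 10 receptors, Cebpa, the sort markers, all ligands, up to 4 genes of each other list with the smallest p, the nearest tested neighbours and the 2 genes nearest in pattern. Xist, Ddx3y, Hspa1a, Rpl18-ps1, Lrba, Ncr1, Cd8a, Klra8, Klrk1, Gzma, Prf1 and Clec9a were named outside this rule, after their values were seen. The other cell lists held B cell, plasma cell, myeloid, neutrophil, NK and CD8 T cell, and erythroid genes. Sequences came from RefSeq. Python tools were pandas 2.3.3, numpy 2.4.6 and matplotlib 3.10.9.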

Additional observations from a re-analysis of the deposited data

How the results depend on the processing

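There were 18 alternatives, of which WT replicate 3 alone against Cebpa_KO, coverage in place of TPM and the assembled loci were chosen after seeing the data; where a call or direction changed, the cause was not tested. Each of the 5 receptors that fell stayed negative in every alternative apart from Btla on the Cd3 scale, and aside from that scale the ranges were -0.94 to -0.65 for Ctla4, -0.93 to -0.55 for Cd28, -0.83 to -0.51 for Icos, -0.51 to -0.32 for Btla and -1.03 to -0.80 for Cd96. Of all genes, 3210 were called with all 5 libraries, 1559 with no filter, 5100 on the Cd3 scale, 5015 with array weights, 1661 against WT replicate 3 alone and 23 to 4002 with 1 library left out. Of the receptors, 1 was called with no filter, 3 against WT replicate 3 alone and 0 to 5 with 1 library left out.

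With no filter the counts were 1 for the ligands, 0 for CD28 signalling, 0 for inhibitory signalling, 1 for CTLA-4 trafficking, 2 for other inhibitory receptors, 1 for other costimulatory receptors and 0 for T cell identity. Against WT replicate 3 alone they were 1 for the ligands, 1 for CD28 signalling, 3 for inhibitory signalling, 3 for other inhibitory receptors and 1 for T cell identity. On the Cd3 scale inhibitory signalling had 3, all of them higher, where all its calls in the main fit were lower. Other inhibitory receptors had 4 on that scale, 1 higher and 3 lower, and other costimulatory receptors had 5, 3 higher and 2 lower. T cell identity, a list that holds the 4 Cd3 genes that set the scale, had 0. With no trend, inhibitory signalling had 4 and trafficking 1; with array weights trafficking had 5, by coverage CD28 signalling had 5, and by assembled loci T cell identity had 1. With 1 library left out they were 0 to 2 for the ligands, 0 to 4 for CD28 signalling, 0 to 8 for inhibitory signalling, 0 to 2 for trafficking, 0 to 7 for other inhibitory receptors, 0 to 3 for other costimulatory receptors, 1 to 5 for the regulators and 0 to 4 for T cell identity.

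The replicate numbers are shared by 2 pairs, but nothing in the labels says that a number links the groups. The numbers were therefore not taken to pair the libraries. In these pairs the deviations from the group means had correlations of -0.18 and 0.27. The deviations of 2 Cebpa_KO libraries mirror each other, so these correlations cannot show whether the libraries are paired. With the replicate block, 1359 genes were higher and 1050 lower, and 5 receptors were called, Ctla4, Cd28, Icos, Havcr2 and Cd96. The block gave counts of 1 for CD28 signalling, 2 for inhibitory signalling, 1 for trafficking and 1 for T cell identity.

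Without Cebpa_KO replicate 2, the Cebpa difference was -3.54 and did not pass; with 1 library left out it lay between -3.54 and -3.27. The difference in the Ctla4 over Cd28 ratio turned to 0.025 without Cebpa_KO replicate 1 and was between -0.10 and 0.025 with 1 library left out. Directions turned on the Cd3 scale for Pdcd1 (0.29), Btla (0.023), Cd86 (0.21), Pvr (0.10), Nectin2 (0.20), Lgals9 (0.33), Lgals3 (0.076), Lck (0.10), Vav1 (0.25), Rab11a (0.026), Lax1 (0.14), Cd3e (0.020) and Cd4 (0.19). Icosl turned to -0.24 without Cebpa_KO replicate 1 and -0.44 against WT replicate 3 alone. Cd274 turned to -0.0031, -0.027 and -0.034 without WT replicate 1, WT replicate 2 and Cebpa_KO replicate 2, and to -0.16 with WT replicate 3 alone. With 1 library left out, Icosl lay between -0.24 and 0.60, Cd274 between -0.034 and 0.12, Nectin2 between -0.31 and 0.080, Ceacam1 between -1.44 and 0.43 and Rpl18-ps1 between -0.072 and 0.10. Nectin2 turned to 0.080 without WT replicate 3 and 0.082 with the replicate block, Lgals9 to 0.028 with WT replicate 3 alone, and Ceacam1 to 0.43 without Cebpa_KO replicate 2. Rpl18-ps1 turned to -0.015 under quantile normalization, -0.037 without WT replicate 2, -0.072 without Cebpa_KO replicate 1 and -0.025 with WT replicate 3 alone. Depth is known only as aligned bases, so no detection limit was set for low genes such as Havcr2, and their differences are on a scale that a pseudocount compresses.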
